A study of Mus musculus with 24 samples.

Results

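A set of 9 macrophage identity genes and transcription factors was followed through both experiments, chosen by gene symbol, and all 9 were found among the 54658 symbols of the count tables. The identity genes are Adgre1, which encodes the surface protein F4/80, Icam2, an adhesion molecule, Timd4, which encodes the phosphatidylserine receptor Tim-4, and Gata6, a transcription factor. The other 5 are transcription factors of myeloid cells: Spi1 (PU.1), Cebpb (C/EBPβ), Maf (c-Maf), Irf8 and Irf4.

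As background, PU.1 binds DNA through an ETS domain and is needed for macrophages to form. C/EBPβ is induced in macrophages by bacterial products and cytokines, and IRF8 and IRF4 are related factors that bind DNA weakly alone and more firmly with partners such as PU.1. In the peritoneum, large resident macrophages express GATA6, ICAM2, Tim-4 and much F4/80, and this population shrinks in lavage fluid during inflammation while monocyte-derived macrophages arrive. None of these genes marks macrophages alone. Gata6 is expressed in mesothelium, cardiac muscle and lung epithelium, Icam2 in endothelium, and Irf4 and Irf8 in B cells and dendritic cells.

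All mice were C57BL/6 males of 7 to 12 weeks. They received β-nicotinamide mononucleotide (β-NMN, a precursor of NAD+) by intraperitoneal injection at 185 mg/kg per day, or saline as vehicle. According to the study's methods, the first dose went in together with TGC in one experiment, and in the other it followed the surgery. One experiment used thioglycollate (TGC), a sterile irritant that draws macrophages into the peritoneum. Its lavage cells, from 6 vehicle and 6 β-NMN mice, were plated with no sort described, and all were stimulated with E. coli for 6 h, so that no unstimulated cells and no untreated mice stand beside them. The other used cecal ligation and puncture (CLP), a surgical model of polymicrobial sepsis, with heart and lung from the same 3 vehicle and 3 β-NMN mice, and no mice without surgery are among these samples. The labels speak of daily injections until sacrifice, and the study's text places the organ samples on the day after surgery.

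Levels are given as CPM, the reads of a gene scaled to the TMM-normalised library size. The libraries held 31.1 to 112 M counts in peritoneal cells, 27.3 to 68.5 M in hearts and 8.92 to 28.4 M in lungs. The peritoneal libraries fell into 7 shallower ones (31.1 to 53.3 M, 3 vehicle and 4 β-NMN) and 5 deeper ones (90.6 to 112 M, 3 vehicle and 2 β-NMN). Vehicle mouse 2 of the CLP experiment stood apart in both organs. Across genes, the SD of its log2 difference from the other libraries was 0.99 in the heart, where the others had 0.39 to 0.58, and 1.57 in the lung, where the others had 0.45 to 0.60. That lung was also the shallowest library. Defining markers followed the labels, with Lyz2, a lysozyme of myeloid cells, at 4340.0 CPM in vehicle peritoneal cells, summed cardiomyocyte markers of at least 27833 CPM in every heart, and summed alveolar epithelial markers of at least 24677 CPM in every lung.

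Promoter sequence was found in the RefSeq table (GRCm38.p6) for Timd4, Cebpb, Irf8 and Irf4. These are shown because they were the 4 genes whose peritoneal groups did not overlap. Each run goes from 250 bases before the first listed start to 50 bases into the transcript, on the plus strand, and capitals mark the motif matches named after them.

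Timd4, chr11:46810549-46810848: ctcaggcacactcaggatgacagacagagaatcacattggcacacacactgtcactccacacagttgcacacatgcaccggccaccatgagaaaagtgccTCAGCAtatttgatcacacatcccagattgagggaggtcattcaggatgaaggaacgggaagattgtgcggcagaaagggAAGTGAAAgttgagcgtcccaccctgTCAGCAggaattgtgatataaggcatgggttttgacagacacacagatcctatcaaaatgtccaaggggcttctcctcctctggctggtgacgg
Cebpb, chr2:167688665-167688964: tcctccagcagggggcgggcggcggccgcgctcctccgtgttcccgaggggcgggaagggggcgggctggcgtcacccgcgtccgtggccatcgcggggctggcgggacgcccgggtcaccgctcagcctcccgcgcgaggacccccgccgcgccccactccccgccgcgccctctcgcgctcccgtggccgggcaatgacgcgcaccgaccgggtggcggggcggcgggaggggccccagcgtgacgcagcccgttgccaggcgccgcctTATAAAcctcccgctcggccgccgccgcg
Irf8, chr8:120736108-120736407: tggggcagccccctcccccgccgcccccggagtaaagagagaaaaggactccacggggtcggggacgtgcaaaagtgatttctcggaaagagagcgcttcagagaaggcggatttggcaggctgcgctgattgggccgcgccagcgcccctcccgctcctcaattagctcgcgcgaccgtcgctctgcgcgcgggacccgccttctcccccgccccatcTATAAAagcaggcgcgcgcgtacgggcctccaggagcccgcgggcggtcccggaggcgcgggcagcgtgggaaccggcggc
Irf4, chr13:30748983-30749282: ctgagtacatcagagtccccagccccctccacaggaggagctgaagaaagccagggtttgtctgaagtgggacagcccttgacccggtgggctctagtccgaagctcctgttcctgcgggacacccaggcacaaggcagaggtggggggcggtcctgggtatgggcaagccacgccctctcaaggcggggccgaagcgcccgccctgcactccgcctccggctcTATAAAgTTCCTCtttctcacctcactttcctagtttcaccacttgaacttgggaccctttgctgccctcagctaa

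Both strands were searched for 6 motifs, written here in letters. They were the PU box GAGGAA, the C/EBP motif TTGCNNAA, the IRF element AANNGAAA, the GATA motif AGATAA, the MAF site TGCTGA and the TATA box TATAAA. Of 32851 promoters of this length in the table, 28.3% held the PU box, 10.8% the C/EBP motif, 23.9% the IRF element, 11.2% the GATA motif, 19.5% the MAF site and 13.6% the TATA box. The Timd4 window held 2 MAF sites on the other strand and an IRF element 70 bases before the start. That of Cebpb held TATAAA 21 bases after the listed start, inside the transcript, and that of Irf8 held it 31 bases before the start. That of Irf4 held a TATA box 26 bases before the start and a PU box 19 bases before it, on the other strand, with 1 base between the matches. A match describes these letters and not a binding site.

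The annotation (GENCODE M21, GRCm38) placed Adgre1 on chromosome 17 at 57358691 to 57483527, Icam2 on chromosome 11 at 106377656 to 106388075, Timd4 on chromosome 11 at 46810800 to 46844332 and Spi1 on chromosome 2 at 91082390 to 91115756. Cebpb lies on chromosome 2 at 167688915 to 167690418, Maf on chromosome 8 at 115682942 to 115707794, Irf8 on chromosome 8 at 120736358 to 120756694 and Irf4 on chromosome 13 at 30749226 to 30766976. Gata6, on chromosome 18, overlaps an antisense transcript. Cebpb overlaps Tmem189 on the opposite strand, Maf overlaps Gm15655, and Irf8 overlaps Gm20388 on its own strand. A strand setting of the counting is not named in the methods, and reads from these overlaps could not be told apart.

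In peritoneal cells, the macrophage genes moved in different directions after β-NMN. Timd4 and Irf8 rose, while Gata6, Icam2, Cebpb and Irf4 fell. Adgre1, Spi1 and Maf did not pass the test. Thus 6 of the 9 passed edgeR's quasi-likelihood test at an adjusted p below 0.05, in an experiment in which 51.6% of 14985 genes tested passed it (23.7% higher and 27.9% lower). The groups did not overlap at 4 of the 9 genes (2 higher and 2 lower), against 26.6% of all genes tested (12.6% higher and 14% lower). The median log2 fold change was -0.20 over the 9 genes and -0.02 over all genes tested. In a bulk sample, fewer cells of a type and less RNA per cell cannot be told apart.

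**Figure D1:**
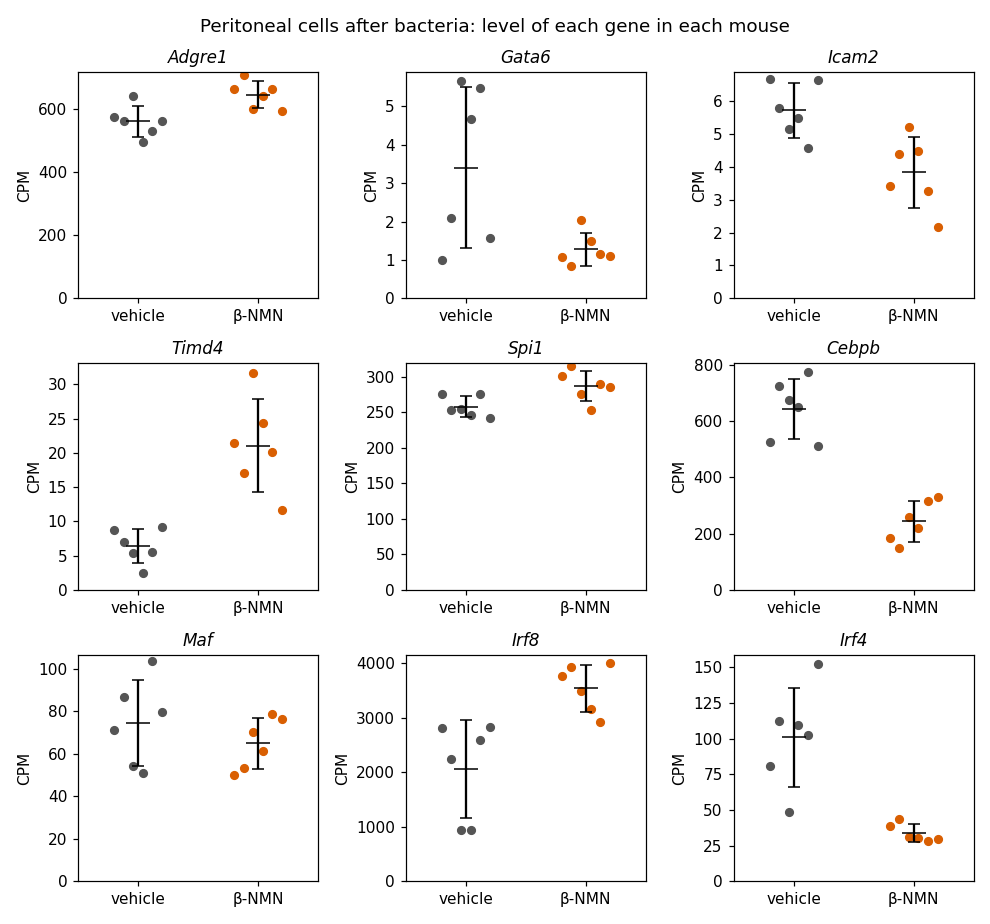
Level (CPM, linear axis from 0) of each of the 9 genes in peritoneal cells of 6 vehicle and 6 β-NMN mice, with 1 point per mouse and the mean ± SD in black. The groups of Timd4, Cebpb, Irf8 and Irf4 are apart, and vehicle Irf8 splits into 2 mice at 937 and 939 CPM and 4 mice at 2243 CPM or more.

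Adgre1 was one of the more abundant of these transcripts. It ranged from 496 to 644 CPM in vehicle mice (median 563) and from 595 to 709 CPM in β-NMN mice (median 654). The ranges overlapped, and the means were 563 ± 49.4 and 647 ± 43.0 CPM (SD, n = 6 per group). The log2 fold change of 0.20 ± 0.08 (SE) missed the threshold with an adjusted p of 0.055, while the exact permutation test of this gene alone gave p = 0.0152. DESeq2 (adjusted p = 0.0268) and limma-voom (0.011) placed it below the threshold. So did the edgeR test without β-NMN mouse 3, 4 or 6 or vehicle mouse 1 or 3 (adjusted p from 0.00883 to 0.0493), so its call depended on the test and on single libraries, with adjusted p of up to 0.123 when 1 library was left out.

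Gata6, which maintains the resident large peritoneal macrophage, was the least abundant of the 9 in these cells, with 29 to 612 reads per library. Vehicle mice ranged from 0.99 to 5.65 CPM (median 3.37), and β-NMN mice from 0.83 to 2.05 CPM (median 1.12). The vehicle mice fell into 3 with 4.66 to 5.65 CPM and 3 with 0.99 to 2.08 CPM, of which the lower 2 lay within the range of the β-NMN mice and the highest at its edge. Its log2 fold change was -1.43 ± 0.39 (adjusted p = 0.0064, exact permutation p = 0.0476). Mesothelial markers moved with it. Of the 4 in the list (Msln, Upk3b, Wt1 and Krt19), 3 were lower, and their sum was 2.32 to 14.5 CPM in vehicle and 1.43 to 4.84 CPM in β-NMN mice. The vehicle mice with the 3 highest Gata6 levels had mesothelial sums of 14.5, 8.63 and 14.1 CPM, and the other vehicle mice had 2.32, 7.31 and 2.94 CPM. The 3 fibroblast markers moved with it as well, with sums of 595, 267 and 148 CPM in the same 3 vehicle mice, 52.6, 140 and 59.5 CPM in the other vehicle mice and 14.0 to 50.4 CPM in β-NMN mice. The part of both marker lists in the Gata6 result was not tested.

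Icam2 was low in these cells. Vehicle mice had 4.57 to 6.66 CPM (median 5.63), and β-NMN mice had 2.16 to 5.21 CPM (median 3.91). The ranges overlapped, and the log2 fold change was -0.58 ± 0.18 (adjusted p = 0.0157, exact permutation p = 0.0065). Of the endothelial markers, which belong to another cell type that carries ICAM-2, 2 of 3 tested were lower. Their summed level was 63.1 to 143 CPM in vehicle and 64.8 to 116 CPM in β-NMN mice, and their part in the result was not tested.

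Timd4, whose product binds the phosphatidylserine of apoptotic cells, rose the most of the 9 genes. The vehicle mice ranged from 2.41 to 9.22 CPM (median 6.29) and the β-NMN mice from 11.7 to 31.6 CPM (median 20.8). Every β-NMN mouse was above every vehicle mouse. The means were 6.40 ± 2.50 and 21.1 ± 6.74 CPM (SD, n = 6). The fit of edgeR gave a 3.31-fold higher level (log2 value 1.73 ± 0.28, adjusted p = 0.00016). The exact permutation p was 0.00216, the smallest that 6 mice against 6 can give.

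Among the transcription factors, Spi1 varied little between mice. It ranged from 242 to 276 CPM in vehicle mice (median 254) and from 253 to 315 CPM in β-NMN mice (median 287). The ranges overlapped, and the log2 fold change was 0.15 ± 0.08 (adjusted p = 0.105, exact permutation p = 0.0195). The call changed without β-NMN replicate 4, when the adjusted p was 0.0255. Maf, a factor of anti-inflammatory macrophage programmes, had 50.9 to 104 CPM in vehicle mice (median 75.4) and 50.1 to 78.8 CPM in β-NMN mice (median 65.8). Its groups overlapped throughout, with a log2 fold change of -0.20 ± 0.17 (adjusted p = 0.359, exact permutation p = 0.39). limma-voom with quality weights gave -0.38 and an adjusted p of 0.0379 for Maf.

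Cebpb, the C/EBP factor that stimulated macrophages induce, was lower in all β-NMN mice. Vehicle mice ranged from 512 to 774 CPM (median 662), and β-NMN mice from 149 to 332 CPM (median 239.6). No β-NMN mouse reached the lowest vehicle mouse. The mean was 2.65-fold lower, from 644 ± 106 to 243 ± 72.2 CPM (SD, n = 6), with a log2 fold change of -1.40 ± 0.18 (adjusted p = 2e-05, exact permutation p = 0.00216).

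The IRF factors went in opposite directions. Irf8, a factor of monocytes and of a class of dendritic cells, ranged from 937 to 2826 CPM in vehicle mice (median 2418) and from 2919 to 3994 CPM in β-NMN mice (median 3623). The groups did not overlap, although vehicle replicates 3 and 4, at 937 and 939 CPM, were far below the other 4 vehicle mice (2243 to 2826 CPM). Its log2 fold change was 0.78 ± 0.26 (adjusted p = 0.0202, exact permutation p = 0.00216). Irf4, linked with alternative activation and with dendritic and B cells, ranged from 48.4 to 152 CPM in vehicle mice (median 106) and from 28.4 to 43.8 CPM in β-NMN mice (median 30.8). Every β-NMN mouse was below every vehicle mouse, and the mean was 2.99-fold lower (log2 fold change -1.58 ± 0.21, adjusted p = 2.5e-05, exact permutation p = 0.00216).

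Markers of other cell types that express the IRF factors also moved. Their counts stand beside the 27.9% of all tested genes that were lower. Of 5 dendritic cell markers, 4 were lower (median log2 fold change -1.22). The sum of the 5, which weighs abundant genes most, was 170 to 208 CPM in vehicle and 36.6 to 50.1 CPM in β-NMN mice, without overlap. Ccr7, a receptor of migrating dendritic cells, fell by 2.41 and Zbtb46, a dendritic cell factor, by 1.83 on the log2 scale. Of 5 B cell markers, 3 were lower, with sums of 37.1 to 189 CPM and 25.9 to 92.3 CPM. Of 7 neutrophil markers tested, 5 were lower and 1 was higher (median log2 fold change -4.10). The sums, again weighted to abundant genes, were 491 to 999 CPM in vehicle and 334 to 468 CPM in β-NMN mice. Of 3 fibroblast markers, 3 were lower (52.6 to 595 CPM and 14.0 to 50.4 CPM), of 3 NK cell markers 3 (34.7 to 195 CPM and 12.4 to 31.1 CPM), of 5 T cell markers 3, with 1 higher (26.9 to 55.9 CPM and 43.0 to 64.7 CPM), and of 4 mast cell markers 1 (87.2 to 243 CPM and 62.8 to 107 CPM). The only eosinophil marker tested, Ccr3, was higher, and the defining Epx and Prg2 were too low to test. The part of these cells in the changes of Irf4, Irf8 and Cebpb was not tested.

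The 6 genes moved in the same direction within both depth classes. With the depth class of the library as a term, a fit chosen after seeing the data, all 6 kept their calls (adjusted p of at most 0.0234). Leaving out each of the 12 libraries in turn also kept all 6, with a highest adjusted p of 0.048 for Icam2, 0.039 for Irf8 and 0.0187 for Gata6. Within the classes, where fewer mice remained, Timd4, Cebpb and Irf4 passed in both, and Icam2 (0.178 in the deeper and 0.135 in the shallower libraries) and Irf8 (0.135 and 0.0823) in neither. Gata6 passed in the deeper (0.0275) but not in the shallower libraries (0.164).

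Per kilobase of exon, which allows levels of different genes to be compared, the order in vehicle peritoneal cells was Cebpb (428 ± 70.3 CPM per kb), Irf8 (292 ± 127), Adgre1 (174 ± 15.3), Spi1 (95.7 ± 5.43), Irf4 (20.6 ± 7.07), Maf (9.03 ± 2.43), Icam2 (3.0 ± 0.43), Timd4 (2.94 ± 1.15) and Gata6 (0.52 ± 0.32). In β-NMN mice, Irf8 came first at 502 ± 61.1 CPM per kb, followed by Adgre1 at 200 ± 13.3 and Cebpb at 162 ± 48.0. Timd4 moved up to the fifth place at 9.69 ± 3.10, above Maf (7.89 ± 1.45) and Irf4 (6.89 ± 1.25). Neighbours with overlapping ranges, and so no order beyond their spread, were Cebpb and Irf8, Irf8 and Adgre1, Irf4 and Maf, and Icam2 and Timd4 in vehicle mice. In β-NMN mice they were Adgre1 and Cebpb, Cebpb and Spi1, Timd4 and Maf, and Maf and Irf4.

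Differences between mice of the same group were described with Pearson's r of log2 CPM after each group's mean was removed, over 12 libraries. Among the 9 genes, Gata6 and Irf8 ran most against each other (r = -0.64), followed by Icam2 and Cebpb (r = -0.60), and Maf and Irf8 (r = 0.63) and Timd4 and Icam2 (r = 0.62) ran together. The mice differ in depth class and in the levels of markers of other cell types, whose part in these values was not tested, and the values describe these libraries. Over the tested genes whose log2 CPM averaged 1 or more, those closest to Gata6 were Eln (elastin, r = 0.96), Ltbp1, a matrix protein that binds latent TGF-β (0.96), and Klf5 (0.93). Eln ranged from 2.18 to 21.5 CPM in vehicle mice and from 0.73 to 2.87 CPM in β-NMN mice. It was lower after β-NMN (log2 fold change -2.76, edgeR adjusted p = 0.00034). Ltbp1 (0.02, adjusted p = 0.95) and Klf5 (0.04, adjusted p = 0.88) did not pass the test. Ltbp1 is also on the list of resident macrophage genes used below.

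Closest to Irf4 were Pax5, the defining factor of B cells (r = 0.97), Ppp1r16b (0.97) and Il21r (0.96). Pax5 was lower after β-NMN (20.4 ± 11.1 to 7.33 ± 2.04 CPM, log2 fold change -1.48, adjusted p = 0.0013). Closest to Irf8 were Rmdn3 (r = 0.99), Rhoh (0.99), and Pik3cd, a PI3-kinase subunit of leukocytes (0.98). The vehicle mice with low Irf8 also had the lowest Rhoh, at 14.4 and 12.8 CPM against 42.5 to 70.9 CPM in the other 10 mice. Closest to Timd4 were C4b, complement component C4 (0.97), Coq2 (0.94) and Pycard, an inflammasome adaptor (0.94). C4b had 21.8 to 48.9 CPM in vehicle mice and 46.6 to 85.4 CPM in β-NMN mice.

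For the remaining genes the closest were Pde5a (r = 0.92), Marcks (0.91) and Zbtb18 (0.89) for Cebpb, Gnptab (0.94), Taok3 (0.93) and Cpne3 (0.91) for Maf, and Crlf2 (0.90), Cox14 (0.85) and Slc35f6 (0.84) for Spi1. They were Erp29 (0.95), Selenop (0.94) and Atp5o (0.94) for Adgre1, and Mrpl33 (0.87) and 1700058P15Rik (0.86) for Icam2. The closest genes of all members were picked as the highest r of many genes over 12 libraries. Such picks can be high without any link, and no p was computed for them.

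**Figure D2:**
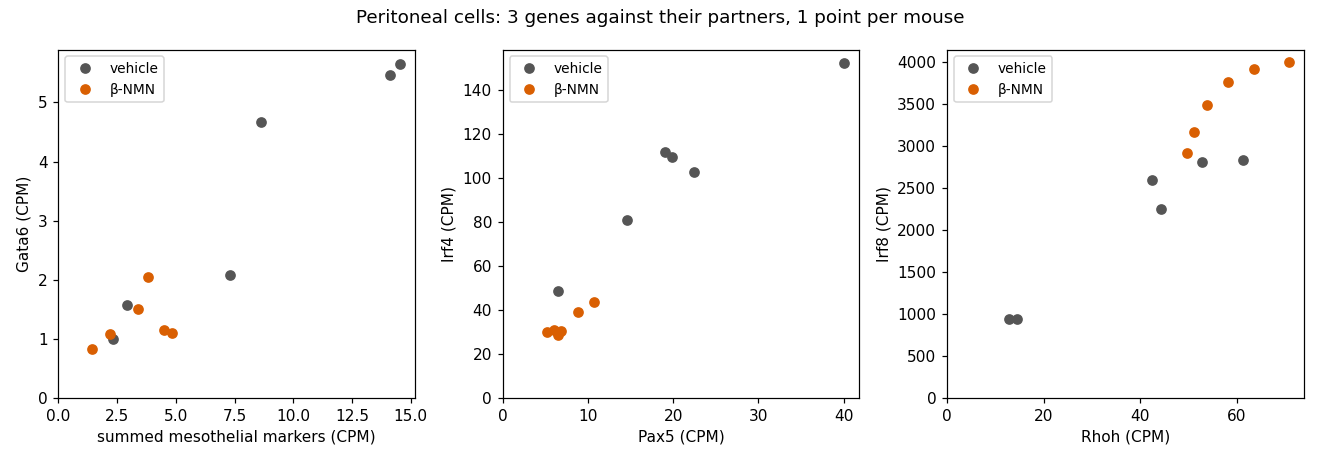
Level (CPM, linear axes from 0) in peritoneal cells of Gata6 against the summed mesothelial markers, of Irf4 against Pax5 and of Irf8 against Rhoh, with 1 point per mouse and colour for treatment. The vehicle mice with the most Gata6 have the largest mesothelial sums, and a pair of vehicle mice lies low in both Irf8 and Rhoh.

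Related genes, taken from lists of names, were read beside these members. Counts of list genes are to be read beside the 23.7% of all tested genes that were higher and the 27.9% that were lower. Of 17 genes of resident large peritoneal macrophages, 7 were higher and 4 lower, with a median log2 fold change of 0.02. Their summed level was 1439 to 2042 CPM in vehicle and 849 to 1289 CPM in β-NMN mice, lower without overlap. The abundant Serpinb2 (666 ± 213 to 193 ± 45.8 CPM) and Bhlhe40 (637 ± 39.9 to 327 ± 40.9 CPM) made up most of this sum in vehicle mice, which fell although more of the genes were higher than lower. Vsig4, a complement receptor (3.26 ± 1.16 to 14.4 ± 6.85 CPM), Prg4 (lubricin, 16.4 ± 2.63 to 46.3 ± 15.9 CPM) and Fcna (ficolin A) rose like Timd4, by 2.16, 1.5 and 0.98 on the log2 scale. Others fell, as Gata6 did. Serpinb2, a protease inhibitor, dropped by 1.79 and Bhlhe40, a transcription factor of macrophage proliferation, dropped by 0.96. Of the 4 identity genes among the members, 1 was higher and 2 were lower.

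Of 12 genes of monocyte-derived and small peritoneal macrophages, 4 were higher and 4 lower (median -0.15). Their summed level, too, was lower without overlap, at 1827 to 3658 CPM in vehicle and 979 to 1251 CPM in β-NMN mice, and most of it was Fn1. Fn1 (fibronectin) fell from 2409 ± 643 to 881 ± 89.6 CPM, and Ccr2, the receptor that brings monocytes into tissue, from 13.4 ± 4.62 to 3.77 ± 0.83 CPM. The lectins Mgl2 and Clec10a rose by 2.19 and 0.90 on the log2 scale, Mgl2 from 0.25 ± 0.10 CPM. Of 12 genes common to macrophages, 5 were higher and 2 lower (median 0.14). Cd68, Laptm5 and Tyrobp rose by 0.84, 0.94 and 0.76 on the log2 scale, and Cd14, the lipopolysaccharide co-receptor, fell from 2693 ± 1387 to 355 ± 48.8 CPM.

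Among relatives of the transcription factors, those of Cebpb and Maf were lower or did not pass. Of 6 genes on the C/EBP list, 4 were lower and none higher (median -0.72), with Ddit3 (CHOP) at -1.23, Cebpz at -0.76, Cebpa at -0.76 and Cebpd at -0.68. Cebpz is on that list by its symbol and is not a C/EBP factor. Of 5 small and large MAF factors tested, 3 were lower (median -1.26), with Maff at -1.75 and Mafg at -1.26. Of 6 other IRF genes tested, Irf5 was higher at 0.41 and Irf9 and Irf3 were lower at -0.46 and -0.40. Of 4 other GATA genes tested, Gata3, a T cell factor, was lower at -1.94. Of 10 relatives and partners of PU.1, 5 were lower and 1 higher (median -0.63). Spib, an ETS factor of B cells and plasmacytoid dendritic cells, fell by 2.04 and Batf, a partner of IRF4 and IRF8, by 0.76, while Batf3, a partner of IRF8 in dendritic cells, rose by 1.69.

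**Figure D3:**
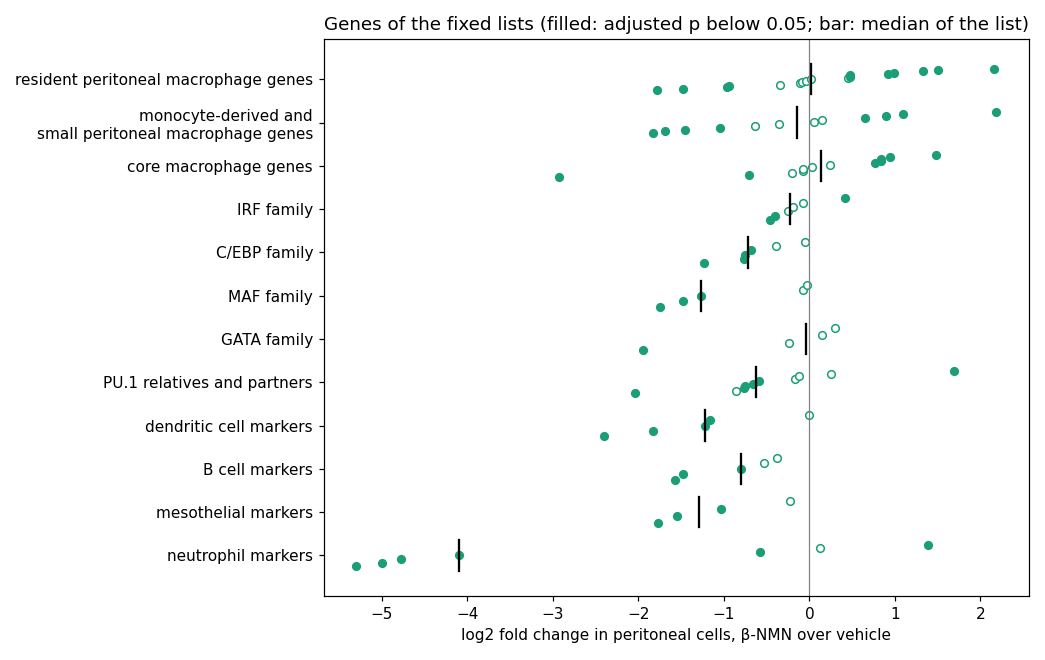
Log2 fold change (β-NMN over vehicle) in peritoneal cells of each tested gene of 12 lists, as 1 point per gene, filled where the adjusted p was below 0.05, with the median of each list as a black bar. Resident macrophage genes spread to both sides of 0, and genes of the C/EBP and MAF lists and dendritic cell markers lie at or below 0.

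In CLP hearts, none of the 9 genes passed the test, as none of the 16245 genes tested did (0%). At an unadjusted p below 0.05, edgeR counted 1837 genes, among them Cebpb and Irf8. DESeq2 called 287 genes. The groups did not overlap at 2 of the 9 genes, both lower after β-NMN, against 23.1% of all genes tested (11.6% higher and 11.5% lower). The smallest exact permutation p in this design is 0.1, and in counts simulated for these hearts edgeR found 12% of changes of 1 on the log2 scale and 73% of changes of 2.

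Cebpb in hearts had 89.4, 110 and 90.9 CPM in the vehicle mice and 72.4, 68.9 and 70.5 CPM in the β-NMN mice. The β-NMN hearts lay lower than each vehicle heart. The log2 fold change was -0.46 ± 0.12 (adjusted p = 0.435, exact permutation p = 0.1). Irf8 had 11.2, 25.8 and 11.9 CPM in vehicle and 8.79, 9.15 and 8.44 CPM in β-NMN hearts, with the heart of vehicle mouse 2 far above the others. Other markers were also high in that heart, with summed B cell markers at 5.72 CPM (0.55 to 1.79 CPM in the other 5), mast cell markers at 14.3 CPM (1.83 to 2.97 CPM) and mesothelial markers at 92.0 CPM (5.77 to 13.1 CPM), and their part in the Irf8 value was not tested. Its log2 fold change was -0.89 ± 0.33 (adjusted p = 0.435), and -0.40 without that heart, where the groups stayed apart.

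Adgre1 had 30.5, 17.9 and 41.5 CPM in vehicle and 50.0, 63.9 and 30.5 CPM in β-NMN hearts, which overlapped (log2 fold change 0.69 ± 0.36, adjusted p = 0.457). Gata6, a factor of cardiac muscle, was abundant there, with 92.1, 108 and 83.8 CPM in vehicle and 78.9, 93.4 and 93.2 CPM in β-NMN hearts. Spi1 stayed between 14.3 and 22.5 CPM, Icam2 between 13.4 and 22.5 CPM and Maf between 24.6 and 35.6 CPM over the 6 hearts. Timd4 (0.64 to 1.66 CPM) and Irf4 (0.34 to 1.32 CPM) were near the lower limit. None of these groups was apart. Summed cardiomyocyte markers were 27833 to 43303 CPM in vehicle and 45475 to 49210 CPM in β-NMN hearts, and those of resident heart macrophages (Lyve1, Folr2, Cd163 and Cbr2, none past the test) were 113 to 232 CPM and 74.1 to 96.2 CPM. Other sums were apart as well. In vehicle and β-NMN hearts, neutrophil markers had 25.4 to 42.2 and 15.4 to 18.4 CPM. Monocyte-derived and small peritoneal macrophage genes had 192 to 272 and 145 to 172 CPM. Resident peritoneal macrophage genes had 489 to 1435 and 374 to 467 CPM. Dendritic cell markers went the other way (14.2 to 24.4 and 26.0 to 29.0 CPM). The part of tissue composition in any of these values was not tested.

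In CLP lungs, again none of the 9 genes passed, nor did any of 17008 genes tested (0%), with 301 genes at an unadjusted p below 0.05 by edgeR and 5 genes called by DESeq2. One of the 9 genes, Irf4, had groups that did not overlap, against 8.21% of all genes tested (4.47% higher and 3.75% lower). In counts simulated for these lungs, edgeR found 0% of changes of 1 or 2 on the log2 scale, so that changes of this size were not detectable.

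Irf4 had 1.65, 0.43 and 1.74 CPM in vehicle and 1.83, 2.51 and 1.87 CPM in β-NMN lungs, where the lowest value rests on 3 reads of the shallow lung of vehicle mouse 2. The log2 fold change was 0.64 ± 0.54 (adjusted p = 0.969), and 0.29 without that lung. The same lung held the extreme value of several genes. Cebpb had 197, 1175 and 262 CPM in vehicle and 213, 115 and 170 CPM in β-NMN lungs, with a log2 fold change of -1.71 ± 0.71 (adjusted p = 0.969) that became -0.46 without it. Maf had 73.6, 473 and 83.6 CPM in vehicle and 156, 71.9 and 57.0 CPM in β-NMN lungs, and its value turned from -1.15 to 0.27. Adgre1 (29.4, 7.08 and 51.3 CPM against 26.9, 51.1 and 47.6 CPM) and Icam2 (155, 47.2 and 103 CPM against 124, 129 and 127 CPM) were lowest in it.

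Summed alveolar macrophage markers, none past the test, were 708 to 1321 CPM in vehicle and 1111 to 1148 CPM in β-NMN lungs. The remaining genes had close means in both groups of lungs. Spi1 had a mean of 75.7 ± 39.0 CPM in vehicle and 75.7 ± 13.3 CPM in β-NMN mice, Irf8 had 38.1 ± 1.56 and 36.5 ± 5.85 CPM, Gata6 had 38.6 ± 5.97 and 40.6 ± 8.55 CPM, and Timd4 had 1.43 ± 0.34 and 1.51 ± 0.77 CPM (SD, n = 3). A p above the threshold does not show that the groups were equal.

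**Figure D4:**
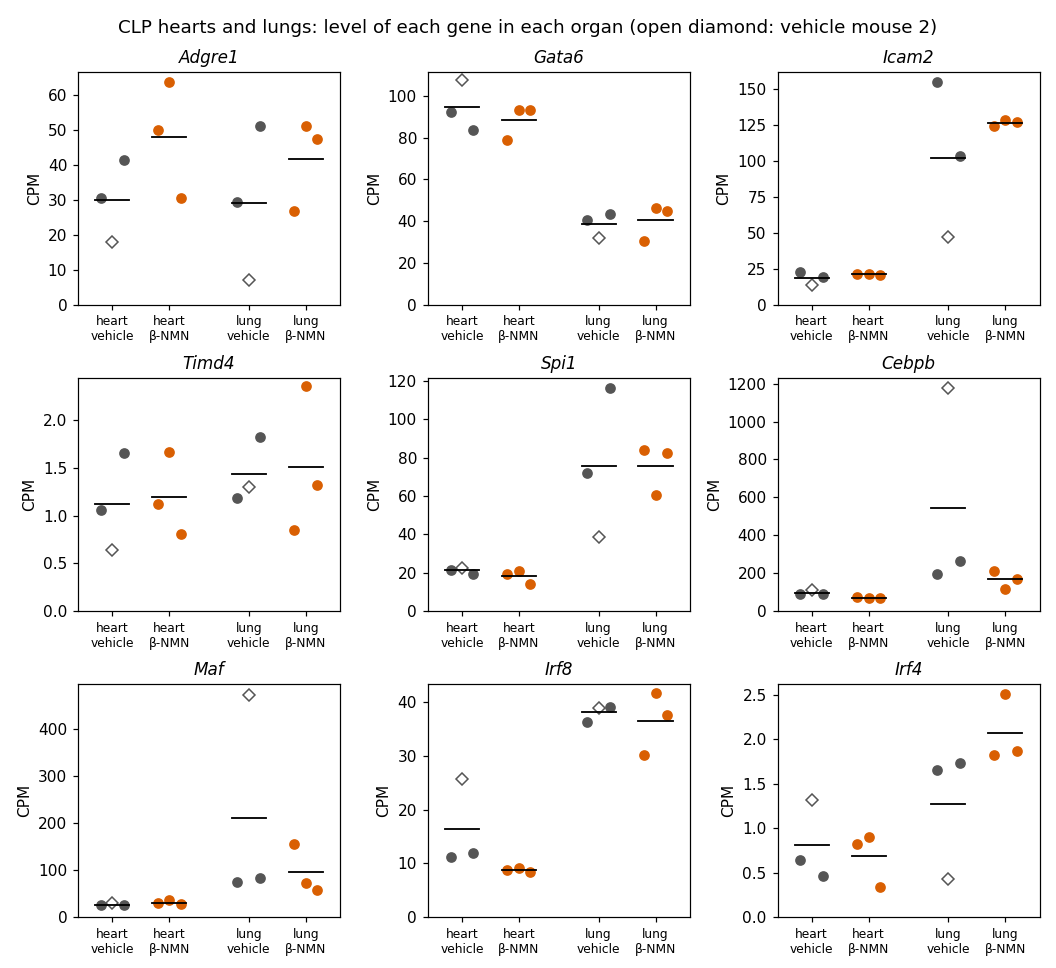
Level (CPM, linear axis from 0) of the 9 genes in hearts and lungs of 3 vehicle and 3 β-NMN mice after CLP, with 1 point per organ, the group mean as a black line and vehicle mouse 2 as an open diamond. Its lung is the highest of all for Cebpb (1175 CPM) and Maf (473 CPM), and the β-NMN hearts lie lower than each vehicle heart for Cebpb and Irf8.

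Both organs came from the same mice, and their levels were compared over both treatments, at first in a model without the mouse as a term. At an adjusted p below 0.05, 6 of the 9 genes differed between lung and heart, where 64.8% of 18318 genes did. Gata6 was lower in lungs (log2 difference lung minus heart -1.88 ± 0.16, adjusted p = 1.3e-06). Icam2 (1.86 ± 0.26), Maf (1.58 ± 0.42), Spi1 (1.29 ± 0.25), Cebpb (1.16 ± 0.36) and Irf8 (0.96 ± 0.20) were higher in lungs. With the mouse as a block these 6 genes kept their calls, with smaller differences for Cebpb (0.92, adjusted p = 0.0265) and Maf (1.26, adjusted p = 0.0157). Without both organs of vehicle mouse 2, the differences of Cebpb and Maf were 0.52 and 0.85, with adjusted p of 0.0099 and 0.0076. Adgre1 (-0.77, adjusted p = 0.118) passed with the mouse as a block (-0.93, 0.0238), without that mouse (-0.79, 0.0149) and without vehicle lung 3 (-1.12, 0.0285). Irf4 (0.49, adjusted p = 0.306) passed without that mouse (0.83, 0.0267). Timd4 (-0.31) did not pass with all libraries, with the block, without that mouse or with any single library left out.

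Per kilobase of exon, Cebpb was first in both organs, at 64.4 ± 7.76 CPM per kb in vehicle hearts and 362 ± 364 in vehicle lungs. In hearts it was followed by Gata6 (14.5 ± 1.87), Icam2 (9.66 ± 2.42), Adgre1 (9.25 ± 3.65), Spi1 (7.85 ± 0.57), Maf (3.23 ± 0.26), Irf8 (2.31 ± 1.16), Timd4 (0.52 ± 0.24) and Irf4 (0.17 ± 0.09). In lungs it was followed by Icam2 (53.5 ± 28.3), Spi1 (28.1 ± 14.5), Maf (25.5 ± 27.6), Adgre1 (9.04 ± 6.83), Gata6 (5.93 ± 0.92), Irf8 (5.40 ± 0.22), Timd4 (0.66 ± 0.16) and Irf4 (0.26 ± 0.15). Without vehicle mouse 2, chosen after seeing the data, Cebpb had 152 and Maf 9.54 CPM per kb in lungs, where Maf then stood below Adgre1 (12.5), and in hearts Adgre1 then stood before Icam2. In hearts, the ranges of Icam2, Adgre1 and Spi1 overlapped, as did those of Maf and Irf8. In lungs, those of Icam2, Spi1, Maf and Adgre1 overlapped with their neighbours, and so did those of Adgre1, Gata6 and Irf8. Irf8 thus stood second in vehicle peritoneal cells and seventh in both organs.

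Whether the effect of β-NMN differed between experiments was tested as an interaction, which compares model, tissue, timing and stimulation at once, and these cannot be told apart. Between peritoneal cells and hearts, 2 of the 9 genes differed, where 15.1% of 19312 genes did. The effect on Cebpb was more negative in peritoneal cells (difference -0.92 ± 0.29, adjusted p = 0.0353), and that on Irf8 was more positive (1.70 ± 0.48, adjusted p = 0.0222). Timd4 had a difference of 1.62 (adjusted p = 0.0534), and Gata6 (-1.33), Irf4 (-1.24) and Icam2 (-0.74) had adjusted p of 0.111 to 0.121. Leaving out 1 of the 18 libraries lost the call of Cebpb in 9 cases, with differences of -1.03 to -0.83 and adjusted p of at most 0.0831. It lost that of Irf8 in 3, among them the heart of vehicle mouse 2, without which the difference of Irf8 was 1.23 (adjusted p = 0.095).

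Between peritoneal cells and lungs, 1 of the 9 genes differed, where 6.64% of 20147 genes did. This was Irf4 (difference -2.12 ± 0.50, adjusted p = 0.0144), which kept the call in all but 1 of 18 libraries left out (adjusted p = 0.0688 without β-NMN lung 2). Timd4 (1.63, adjusted p = 0.0797), Gata6 (-1.54, 0.129), Irf8 (0.84, 0.265) and Cebpb (0.25, 0.842) did not pass. Without the lung of vehicle mouse 2, the difference of Cebpb was -0.85 (adjusted p = 0.137), and without β-NMN lung 2 it was -0.12. Between hearts and lungs, 0 of the 9 genes and 0 of 18318 genes differed (0%) by edgeR, with 797 genes but none of the 9 at an unadjusted p below 0.05. The comparisons with hearts and with lungs share the 12 peritoneal libraries.

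**Figure D5:**
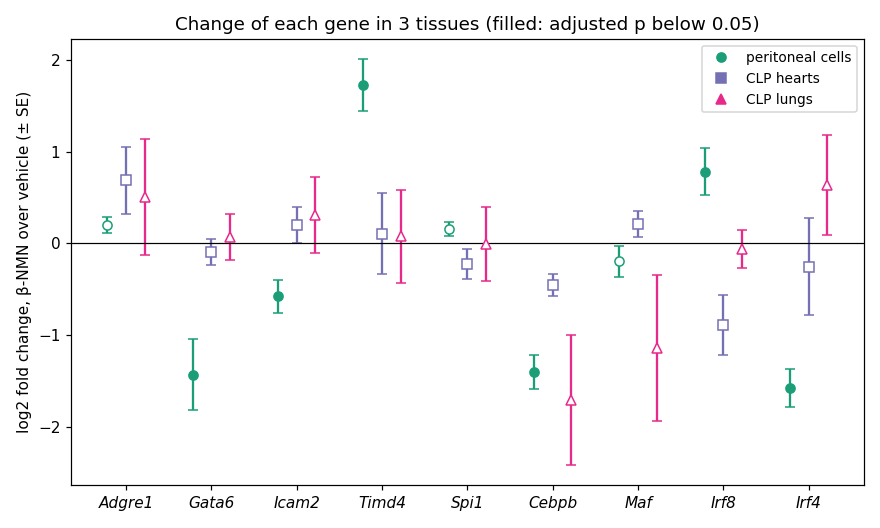
Log2 fold change (β-NMN over vehicle) of the 9 genes in peritoneal cells, CLP hearts and CLP lungs, with 1 point per gene and tissue, the SE as bars, and filled points where the adjusted p was below 0.05. Filled points are found in peritoneal cells only.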

How the data were processed

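RNA of TGC-elicited peritoneal cells stimulated with bacteria (12 libraries) and of hearts and lungs after CLP (12 libraries of 6 mice) had been sequenced after poly(A) selection. The authors deposited raw read counts in 2 tables, with a row for each gene symbol. Per the labels, reads were mapped to mm10 with STAR 2.7.3a and counted with featureCounts 2.0.0. Of 54658 symbols, 54106 were found in GENCODE M21, and the 9 genes matched 1 identifier each.

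From these counts, edgeR 4.0.16 (R 4.3.3) was run on each tissue separately. It used filterByExpr, TMM scaling, dispersions from estimateDisp and the legacy quasi-likelihood test, with Benjamini-Hochberg adjustment over all genes tested. Calls are at an adjusted p below 0.05. Differences between tissues were interaction terms. Levels are CPM of the TMM-scaled library size, with no counting interval. Single genes were compared by an exact two-sided permutation test of mean log2 CPM (prior count 2). The tests were checked on simulated counts. Nothing says whether libraries came from separate extractions or runs, so p-values measure the spread between these samples. As 2 β-NMN hearts carry the number 3, the heart whose mouse gave lung 2 was used as replicate 2. The source labels of the organs name thioglycollate, whereas titles and tissues give CLP.

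The 9 genes and the gene lists were chosen with earlier results of these data known. Named genes were the 9, at most 4 genes per list with the smallest p in peritoneal cells, and the 3 genes closest to each of the 9 by within-group r. Some genes that this rule names are not reported here. Vsig4 and Lyz2 fall outside this rule and were named after their values were seen. Alternatives were DESeq2 1.42.0, its size factors, limma 3.58.1 voom with quality weights, no low-count filter, the replicate or mouse as a block, and leaving out each library.

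Replicate numbers were taken to pair samples only where both organs came from 1 mouse. Between same-numbered peritoneal mice, deviations from the group means correlated at -0.17 to 0.13.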

Additional observations from a re-analysis of the deposited data

Results flagged for a closer look

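Effects of β-NMN that differed between experiments drew attention for 3 of the 9 genes, each by the interaction test of edgeR with adjustment over all genes tested. Between peritoneal cells and hearts 2 of the 9 genes differed, where 15.1% of 19312 genes did, and between peritoneal cells and lungs 1 of 9, where 6.64% of 20147 genes did. The effect on Cebpb was more negative in peritoneal cells than in hearts, by -0.92 on the log2 scale (adjusted p = 0.0353). The heart effect itself did not pass (log2 fold change -0.46, adjusted p = 0.435), and the call of the difference was lost without 1 library in 9 of 18 cases. The effect on Irf8 was more positive in peritoneal cells than in hearts, by 1.70 (adjusted p = 0.0222), while its heart effect did not pass (-0.89, adjusted p = 0.435). The call of this difference was lost in 3 of 18 cases, among them without the heart of vehicle mouse 2 (1.23, adjusted p = 0.095). The effect on Irf4 was more negative in peritoneal cells than in lungs, by -2.12 (adjusted p = 0.0144), and its call was lost in 1 of 18 cases (adjusted p = 0.0688). Model, tissue, time and stimulation differ between these experiments at once and cannot be told apart. No library stood far from its group by Dixon's test in 18 groups of 6 peritoneal mice, of which chance would mark about 1 in 20. The test sets the outermost value against its nearest neighbour. It could not mark mice that lie low together, as vehicle replicates 3 and 4 did for Irf8 (937 and 939 CPM).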

How the results depend on the processing

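In peritoneal cells, 6 to 8 of the 9 genes were called when 1 library was left out, and 3 of them, with 4244 of all genes, within the 7 shallower libraries. Replicate numbers did not pair the peritoneal mice, and the fit with the replicate block called 6 of the 9 genes and 7010 of all genes, against 7733 without it. The genes whose level differed between lungs and hearts numbered 6, but 7 with the mouse as a block (Adgre1 added), 8 without both organs of vehicle mouse 2 (Adgre1 and Irf4 added), 6 to 7 with 1 library left out (7 without vehicle lung 3, Adgre1 added) and 5 with DESeq2, which gave no adjusted p for Maf. The blocks changed no other call. Genes called in hearts numbered 0, but 287 with DESeq2, 3 with limma-voom, 3 without the low-count filter and 0 to 5 when 1 library was left out, the 5 without vehicle replicate 2. In lungs they numbered 0, but 5 with DESeq2 and 7 with limma-voom. Of the 9 genes, those whose effect differed between peritoneal cells and hearts numbered 4 with DESeq2 and 0 to 4 with 1 library left out (0 without β-NMN heart 1 or 3, and 4 without peritoneal vehicle 1). Between peritoneal cells and lungs they numbered 2 with DESeq2 and 0 to 2 (0 without β-NMN lung 2, and 2 without peritoneal vehicle 1 or β-NMN 6).

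Log2 fold changes that changed sign belonged to genes without a call. They were Icam2 in lungs (-0.070) and Irf4 in hearts (0.14) with limma-voom, Maf in peritoneal cells in the shallower libraries (0.046), and Spi1 (0.12) and Timd4 (-0.045) in lungs with the replicate block. With 1 library left out, the values in hearts ran from -0.17 to 0.0020 for Gata6, from -0.53 to 0.26 for Irf4 and from -0.22 to 0.49 for Timd4. In lungs they ran from -0.045 to 0.24 for Gata6, -0.029 to 0.75 for Icam2, -0.16 to 0.057 for Irf8, -1.70 to 0.27 for Maf, -0.31 to 0.46 for Spi1 and -0.39 to 0.35 for Timd4. The cause was not tested. Irf4 and Timd4 rest on 3 and 9 reads in the lung of vehicle mouse 2.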
